A study of Homo sapiens with 45 samples.

Results

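The cadherins and protocadherins are a family of calcium-dependent adhesion proteins of the cell surface, and their transcripts were followed in 3 neuroblastoma lines before and during treatment with palbociclib (PB), an inhibitor of the cell-cycle kinases CDK4 and CDK6. Members were chosen by symbol, as every gene of the count tables named CDH with a number or PCDH with letters or digits. This gave 39 of 29159 genes: 5 type I cadherins, 13 type II cadherins, 5 atypical cadherins, 5 delta-1 and 5 delta-2 protocadherins, 3 other protocadherins that lie outside the clusters, 1 member of the beta cluster (PCDHB15), 1 of the gamma cluster (PCDHGA1) and the pseudogene PCDH8P1. The remaining clustered genes do not appear under names of their own in these tables. They stand as 3 pooled entries, PCDHA@, PCDHB@ and PCDHG@, which the symbol rule does not match and which are described beside the members. PCDH11Y was counted as a member, but its values are not given.

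PolyA RNA was sequenced from SK-N-BE(2)C (MYCN amplified), IMR-32 (MYCN and MEIS1 amplified) and SH-SY5Y (mutant ALK), 3 established lines of the adrenergic type. Each line was grown as control, with 1 µM PB for 24 h, or with 1 µM PB for a longer time. The longer time was 7 days for SK-N-BE(2)C but 5 days for the other lines. There were 5 biological replicates in each of the 9 groups and 45 libraries in all. The replicates were different passages of 1 line, so they do not stand for different tumours. Control cells were harvested alongside those of 24 h, which means that the longer treatment also differs from control by time in culture, and that 7 against 5 days cannot be told apart from the line.

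Type I cadherins such as CDH1 and CDH2 join like cells through their outer repeats and are tied to the actin cytoskeleton by catenins bound to their tail. Type II cadherins bind catenins too and are known from neural crest, mesenchyme and the sorting of neurons, while protocadherins lack the catenin-binding tail. The alpha, beta and gamma protocadherins are chosen promoter by promoter in single neurons, with CTCF and cohesin looping a promoter to a distant enhancer, and give neurons a surface identity. The delta protocadherins, which lie outside those clusters, are known from axon growth and synapses.

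Libraries held 13459219 to 25441812 counts, with a median of 18494528, at which 1 CPM (counts scaled to the library total) is 18.5 reads and a count of 0 allows up to 0.162 CPM. Adrenergic markers were at 1 CPM or more in control cells for 7 of 8 genes in SH-SY5Y, where TH was below, and for 8 of 8 in the other lines. In IMR-32 the libraries numbered replicate 5 stood apart from the other 4 of their group in all 3 groups, with a mean distance of 0.619, 0.610 and 0.451 (root mean square log2) against 0.294 to 0.436 for the others. They are named with the values of the members. In SK-N-BE(2)C, replicates 1 and 2 stood apart from replicates 3, 4 and 5 for several members, and those splits are given with the values.

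A gene was called when the quasi-likelihood test of edgeR gave an adjusted p under 0.05 (Benjamini-Hochberg over all genes of the line) and an absolute log2 fold change over 0.5. The fit held no term for replicate number, so pairing by number was not used in these calls. Results with the number as a block are given apart. SK-N-BE(2)C had 5 of 18 members tested called after 24 h of PB (27.8%, against 21.5% of all genes tested), of which 1 was higher and 4 lower (10.9% and 10.6% of all genes). That count was 3 with no filter on low counts and 8 on adjusted p alone. After 7 days SK-N-BE(2)C had 10 of 18 (55.6%, against 46.8%), 3 higher and 7 lower (24.5% and 22.3%). IMR-32 had 7 of 20 called at 24 h (35%, against 18.3%), 1 higher and 6 lower (7.87% and 10.5%), and 9 of 20 after 5 days (45%, against 32.0%), 2 higher and 7 lower (16.6% and 15.5%). The count of IMR-32 at 24 h was 11 without replicate 5 and also 11 with the block. It was 4 without control replicate 2 or 5 or 24 h replicate 1 or 2, and 3 without 24 h replicate 4. For SH-SY5Y the counts were 8 of 15 at 24 h (53.3%, against 21.5%), 4 higher and 4 lower (10.5% and 11.0%), and 8 of 15 after 5 days (53.3%, against 35.9%), 3 higher and 5 lower (18.6% and 17.3%). With replicates 1 and 2 of SK-N-BE(2)C set aside, its late count was 14 of 19, 7 higher and 7 lower, so that the excess of lower over higher calls late in treatment was seen in that line with all libraries and not without those 2. The median late log2 fold change of the members tested was above 0 in SK-N-BE(2)C at 0.28, beside 0.01 for all its genes. It was -0.34 in IMR-32 (0.00 for all genes) and -0.40 in SH-SY5Y (0.01 for all genes). Both comparisons with control share the control libraries, and in bulk RNA fewer cells of a type and less RNA per cell cannot be told apart.

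PCDH18 was called lower in each line with the longer treatment and lower again than at 24 h, PCDH7 was called lower in each line at 24 h, and 0 members were called higher in all 3 lines in any comparison. The agreement of PCDH7 at 24 h was lost with no filter on low counts and on some single omissions, as given with its values. Of the members tested in 3 lines (10), 2 lines (8) or 1 line (7), 15 were called in at least 1 line at 24 h and 19 late. Of these, 4 and 7 were called in at least 2 lines. No share over all genes was worked out on that basis, so these counts are not read as an excess. Of the 10 members tested in 3 lines, 1 was called alike in all 3 in each comparison (10%), beside 8.65% of 12556 such genes at 24 h, 13.4% late and 2.63% between the treated times. In at least 2 lines 3 of the 10 were called at 24 h (17.3% of such genes) and 5 late (34.4%), and in at least 1 line 7 at 24 h (33.3%) and all 10 late (60.7%). Between 24 h and 7 days, 10 of 18 members were called in SK-N-BE(2)C (31.9% of all genes), 6 higher and 4 lower (17.5% and 14.4%). Between 24 h and 5 days, 7 of 20 were called in IMR-32 (19.6%), 2 higher and 5 lower (10.8% and 8.86%), and 5 of 15 in SH-SY5Y (16.7%), 1 higher and 4 lower (10.5% and 6.23%). The count of IMR-32 was 11 without replicate 5. That of SH-SY5Y was 3 without 24 h replicate 3 or 5-day replicate 2 or with no filter on low counts, and 8 with the block.

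Members whose 5 libraries of one group lay wholly outside the range of the other were no more frequent than among all genes in most comparisons. They were 6 of 18 in SK-N-BE(2)C at 24 h (39.3% of all genes), 9 late (53.8%) and 5 between the treated times (40.4%). IMR-32 had 5 of 20 (23.1%), 6 (39.1%) and 5 (23.5%). For SH-SY5Y the counts were 5 of 15 (38.5%), 7 (47.0%) and 3 (24.7%).

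Upstream sequences are shown for 3 genes, because PCDH18 and PCDH7 are the members called alike in the 3 lines and PCDHB15 is the member of the beta cluster that the tables list by name. Each line gives the 250 bases before the start of the gene in RefSeq on GRCh38.p14, 5′ to 3′ on the gene's own strand, with CG pairs, the sites of DNA methylation, in capitals.
PCDH18, chr4:137532495-137532744, minus strand: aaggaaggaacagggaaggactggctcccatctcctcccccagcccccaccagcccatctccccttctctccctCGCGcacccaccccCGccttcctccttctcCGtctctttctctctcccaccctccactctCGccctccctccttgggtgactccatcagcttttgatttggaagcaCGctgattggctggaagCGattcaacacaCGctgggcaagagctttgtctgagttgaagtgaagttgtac
PCDH7, chr4:30720119-30720368, plus strand: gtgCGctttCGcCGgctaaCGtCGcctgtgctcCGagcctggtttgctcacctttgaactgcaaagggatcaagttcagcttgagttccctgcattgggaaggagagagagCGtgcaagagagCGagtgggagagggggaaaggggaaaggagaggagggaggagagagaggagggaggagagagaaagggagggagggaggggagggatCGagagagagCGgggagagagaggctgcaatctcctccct
PCDHB15, chr5:141245145-141245394, plus strand: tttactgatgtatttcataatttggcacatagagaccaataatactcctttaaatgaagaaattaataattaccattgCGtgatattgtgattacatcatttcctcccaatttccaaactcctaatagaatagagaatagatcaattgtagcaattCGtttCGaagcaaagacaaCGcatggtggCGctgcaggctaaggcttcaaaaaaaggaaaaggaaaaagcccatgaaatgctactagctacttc
The window of PCDH18 holds 8 CG pairs (58.4% G or C), that of PCDH7 10 (59.6%) and that of PCDHB15 5 (35.2%), beside a median of 11 over all windows and 7 over the 37 windows of 24 members with an entry. The window of PCDHB15 is thus the richest of the 3 in A and T. Of the 17 members named below with full values, 12 had a window, and CDH1, CDH11, CDH24, PCDH10 and PCDH20 had none. The motif CAGGTG, the E-box read by the SNAI and ZEB repressors, was searched on both strands and stood in 4 of the 37 member windows (CDH23, CDH4, PCDH1 and PCDH15), beside 17.5% of all windows. None of the E2F motifs TTTCGCGC, TTTGGCGC, TTTCCCGC and TTTGCCGC was found in a member window, beside 2.79% of all windows. TTTGAA, the CHR element of late cell-cycle genes, stood in 5 of 37 (CDH12, CDH2, PCDH11X, PCDH7 and PCDHB15), beside 13.3% of all. These are matches of letters in 1 window and say nothing of binding.

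Untreated cells of the 3 lines carried different sets of members. A mean of at least 1 CPM was reached by 20 members in control IMR-32 (4 at 0 in all 5 libraries), by 18 in SK-N-BE(2)C (8 at 0) and by 13 in SH-SY5Y (10 at 0). Per kilobase of transcript, CDH24 and CDH2 led in SK-N-BE(2)C at 68.0 ± 5.19 and 57.8 ± 6.72 CPM per kb (SD, n = 5), followed by PCDH9 at 35.3, PCDH1 at 29.1 and CDH10 at 18.2. In IMR-32 the same pair led at 49.0 ± 4.27 and 48.1 ± 10.8 CPM per kb, and every other member was at 7.34 or below. SH-SY5Y was led by CDH2 at 85.3 ± 13.8 CPM per kb, ahead of CDH11 at 21.2 and CDH24 at 18.5. The leading pair overlapped between libraries of IMR-32 and of SK-N-BE(2)C, so their order there is not beyond the spread. The plot of control levels shows that PCDH8, CDH3 and CDH7 were highest in IMR-32, whereas CDH10, PCDH9 and PCDH1 were highest in SK-N-BE(2)C.

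**Figure D1:**
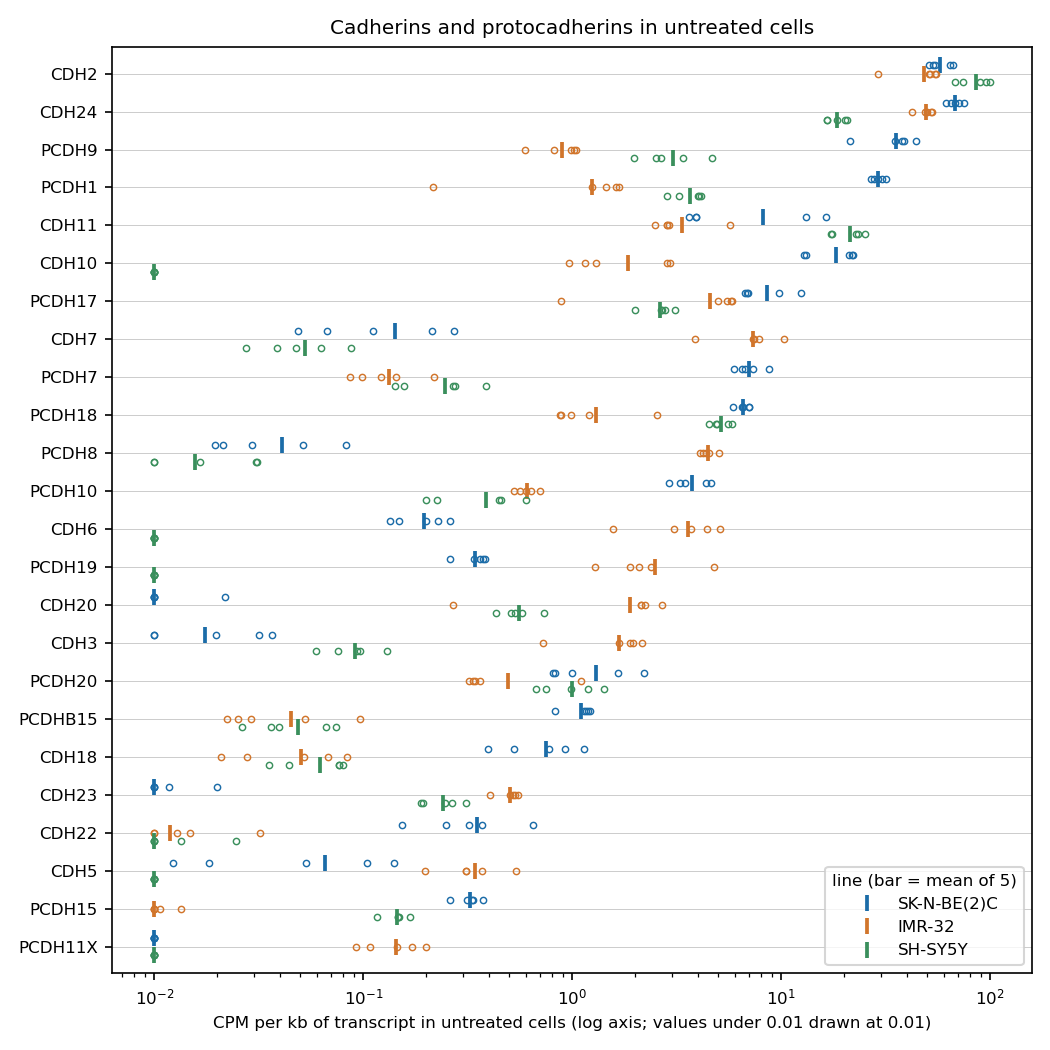
Level of 24 members in untreated cells of the 3 lines, in CPM per kilobase of transcript on a log axis, with 1 point per library (5 a line) and values under 0.01 drawn at 0.01. CDH2 and CDH24 are high in every line, while PCDH9, PCDH1 and CDH10 are highest in SK-N-BE(2)C and CDH11 in SH-SY5Y.

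Among the type I cadherins, CDH2 was the one expressed in every line. CDH2 (N-cadherin, the cadherin of neural tissue; chromosome 18, 25512843 to 25757910 on GRCh37, minus strand) stood at 257, 265, 214, 205 and 219 CPM in control SK-N-BE(2)C, at 303, 315, 244, 243 and 245 after 24 h, and at 607, 462, 346, 498 and 556 after 7 days. All 5 libraries of 7 days were above all others of the line. The fitted late log2 fold change was 1.05 ± 0.14 (SE; adjusted p = 4.79e-06), a 2.07-fold rise, and that between 7 days and 24 h was 0.86 ± 0.14 (adjusted p = 6.38e-05). SH-SY5Y moved in the same direction, with control at 359, 401, 383, 274 and 297 CPM, 24 h at 474, 524, 509, 323 and 320, and 5 days at 829, 740, 593, 411 and 372. Replicates 4 and 5 were the lowest at each time, and the 5-day libraries overlapped the controls in replicate 5 alone. The log2 fold change after 5 days was 0.71 ± 0.21 (adjusted p = 0.0093). In IMR-32 CDH2 was at 206, 221, 217, 205 and 117 CPM in control and 216, 238, 233, 218 and 158 after 5 days. The groups overlapped there, replicate 5 was the lowest in both, and the log2 fold change of 0.13 ± 0.20 did not pass (adjusted p = 0.614). At 24 h CDH2 was called in no line. The late responses differed between lines by at most 0.95 log2 (adjusted p = 0.0143), under the limit of 1 set for a called difference. In the annotation, 307 bases of CDH2 overlap a transcript of the opposite strand, and it is not given whether strand was used in counting.

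CDH1 (E-cadherin, the cadherin of epithelia; chromosome 16, 68771195 to 68869440, plus strand) was near 0 in all lines. Its highest library was at 0.250 CPM (IMR-32 at 24 h), all 5 controls of SK-N-BE(2)C were at 0, and it was tested in no line. CDH15 (M-cadherin, the cadherin of muscle precursors) passed the filter in SH-SY5Y alone. It was at 0.675, 0.842, 0.834, 0.954 and 0.582 CPM in control, at 2.31, 2.15, 1.96, 2.64 and 3.35 after 24 h, and at 0.168, 0.167, 0.531, 0.616 and 0.785 after 5 days. The rise at 24 h was transient, since no 24 h library overlapped either of the other groups. It rose by 1.66 ± 0.28 log2 at 24 h (adjusted p = 9.86e-05) and stood 0.84 ± 0.35 log2 below control after 5 days (log2 fold change -0.84, adjusted p = 0.0432). The late call of CDH15 was lost without control replicate 2, 3 or 4, 24 h replicate 1 or 4 or 5-day replicate 1 or 2 (adjusted p 0.0504 to 0.112), with library size alone (adjusted p = 0.0575) and with no filter on low counts (adjusted p = 0.0554). CDH3 (P-cadherin), at 7.48 ± 2.51 CPM in control IMR-32, passed there at 24 h with the replicate number as a block (0.50, adjusted p = 0.0371), though not without it, and was called in SH-SY5Y, where it stood at 0.634 ± 0.169 CPM at 24 h and 0.345 ± 0.162 after 5 days (log2 fold change -0.90 ± 0.34, adjusted p = 0.0404). That call of CDH3 was lost without 24 h replicate 1, 2, 3 or 4 or 5-day replicate 2, 4 or 5 (adjusted p 0.0511 to 0.115) with DESeq2 (adjusted p = 0.0807), with library size alone (adjusted p = 0.0546) and with no filter on low counts (adjusted p = 0.1). CDH4 was under 1 CPM in every library.

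Of the 13 type II cadherins, CDH24 and CDH11 were among the most abundant. CDH24 (a catenin-binding cadherin; chromosome 14, 23516271 to 23526747, minus strand) was at 242, 209, 222, 255 and 233 CPM in control SK-N-BE(2)C, 191, 169, 199, 207 and 224 after 24 h, and 132, 122, 155, 175 and 158 after 7 days. The 7-day libraries all lay below the controls. Its level fell by 0.69 on the log2 scale (SE 0.09, adjusted p = 5.04e-06). In IMR-32 the controls were at 177, 166, 143, 180 and 170 CPM, those of 24 h at 217, 144, 163, 187 and 209, and those of 5 days at 134, 133, 125, 151 and 94.0. In SH-SY5Y the controls were at 70.2, 56.6, 63.3, 68.7 and 56.3 CPM and the 5-day libraries at 51.1, 44.4, 41.4, 54.4 and 51.9, with no overlap. The late log2 fold changes of -0.41 ± 0.12 (adjusted p = 0.0107) and -0.45 ± 0.09 (adjusted p = 0.000431) passed on p but not on size. Between 24 h and 5 days CDH24 was called lower in IMR-32 at -0.58 ± 0.12 (adjusted p = 0.00179), a call that ended on size without replicate 5 (-0.45, adjusted p = 0.00222) or without its 5-day library alone (adjusted p = 0.00255). The late responses of CDH24 differed by at most 0.27 log2 between lines (adjusted p = 0.199).

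CDH11 moved apart between the lines more than any other member. CDH11 (OB-cadherin, known from mesenchyme and migrating neural crest; chromosome 16, 64977656 to 65160015, minus strand) was at 16.7, 19.5, 19.1, 19.2 and 38.0 CPM in control IMR-32, at 6.75, 4.91, 6.74, 7.44 and 12.2 after 24 h, and at 0.291, 0.109, 0.631, 0.0548 and 3.02 after 5 days. The 3 groups did not overlap, and replicate 5 was the highest in each. In log2 terms the change was -1.53 ± 0.52 at 24 h (adjusted p = 0.0353) and -4.78 ± 0.64 after 5 days (adjusted p = 3.91e-05), or -1.47 (adjusted p = 6.44e-06) and -6.10 (adjusted p = 2.67e-10) without replicate 5. The 24 h call was lost, at adjusted p of 0.0502 to 0.0841, on leaving out 1 of 8 libraries, namely control replicate 2, 3, 4 or 5 or 24 h replicate 1, 2, 3 or 4. Fibroblast markers, summed over 4 genes of which COL1A1 alone reached 1 CPM in IMR-32, ranged over 78.8 to 140 CPM in its controls and 24.3 to 36.9 after 5 days. COL3A1, DCN and LUM were below 1 CPM there. Markers of mesenchymal neuroblastoma cells, 7 found of 8, summed to 336 to 917 CPM in these controls and 141 to 276 after 5 days, with FOSL1, CD44 and WWTR1 below 1 CPM. The part of either list in the fall of CDH11 was not tested. In SH-SY5Y, where CDH11 was not called, the mesenchymal sum went from 1046 to 1501 CPM in control to 785 to 923 after 5 days.

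The same gene was split by replicate number in SK-N-BE(2)C. Controls were at 88.6, 110, 26.3, 24.4 and 26.4 CPM, 24 h libraries at 74.6, 94.0, 16.7, 18.2 and 19.1, and 7-day libraries at 365, 283, 41.7, 74.2 and 113. Replicates 1 and 2 were the highest in each group, and each 7-day library was above the control of its own number. From 24 h to 7 days CDH11 rose by 1.96 ± 0.71 log2 (adjusted p = 0.0278), a call lost without 24 h replicate 3, 4 or 5 or 7-day replicate 1 or 2 (adjusted p from 0.063 to 0.0862). Against control the log2 fold change of 1.61 ± 0.70 missed the threshold (adjusted p = 0.0516), but it passed with the block (1.54, adjusted p = 1.89e-05) and with replicates 1 and 2 set aside (1.5, adjusted p = 0.00517). It also passed with DESeq2 (1.64, adjusted p = 0.0459), with library size alone (1.65, adjusted p = 0.0452) and on 5 of the single omissions. In SH-SY5Y CDH11 was at 153, 170, 156, 117 and 118 CPM in control, 262, 233, 242, 159 and 166 at 24 h and 343, 211, 125, 144 and 114 after 5 days, and was called at neither time. With the replicate number as a block, which pairs libraries by number, the 24 h log2 fold change of 0.55 passed (adjusted p = 0.0296). In the fit of all libraries the late responses were -4.81 in IMR-32, 0.34 in SH-SY5Y and 1.61 in SK-N-BE(2)C, a difference of 6.42 log2 (7.74 with IMR-32 replicate 5 set aside). Fibroblast markers also rose in SK-N-BE(2)C, from 158 to 206 CPM in control to 237 to 451 CPM after 7 days, while the mesenchymal neuroblastoma markers went from 542 to 759 CPM to 350 to 658 CPM. The part of either list in this was not tested.

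CDH7 and CDH20 (type II cadherins known from the neural tube and neural crest) were highest in IMR-32. CDH7 (chromosome 18, 63417488 to 63557573, plus strand) was at 2.58, 3.29, 1.35, 0.594 and 0.811 CPM in control SK-N-BE(2)C, at 0.549, 0.943, 0.121, 0.613 and 0.437 after 24 h, and at 0.0631, 0.216, 0.420, 0.227 and 0.110 after 7 days. The 7-day libraries lay below all controls, and replicates 1 and 2 were the highest controls. Its log2 fold change was -1.71 ± 0.49 at 24 h (adjusted p = 0.00878) and -3.02 ± 0.56 after 7 days (adjusted p = 0.000148). With replicates 1 and 2 set aside the 24 h value was -1.28 (adjusted p = 0.0554) and the late one -1.86 (adjusted p = 0.00816). In IMR-32, where the level was far higher, controls were at 88.9, 95.0, 125, 90.1 and 46.8 CPM and 5-day libraries at 63.2, 76.5, 62.2, 67.0 and 43.6, and the late log2 fold change of -0.52 ± 0.30 was not called (adjusted p = 0.157). Without replicate 5, the lowest in both groups, it was -0.58 (adjusted p = 0.00293), and that between the treated times passed as well (-0.62, adjusted p = 0.00266). CDH7 was under the filter in SH-SY5Y, with a mean of 0.640 CPM in control and 0.0924 after 5 days.

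CDH20 (chromosome 18, 59000663 to 59223012, plus strand) was at 2.15, 2.31, 2.97, 2.05 and 1.74 CPM in control SH-SY5Y, at 0.178, 0.233, 0.653, 0.319 and 0.0524 after 24 h, and at 0, 0.167, 0.531, 0.672 and 0.544 after 5 days. No treated library reached the lowest control, and the treated times overlapped and did not pass against each other (0.37, adjusted p = 0.626). The fitted log2 fold change was -2.97 ± 0.46 at 24 h (adjusted p = 3.63e-05) and -2.59 ± 0.44 after 5 days (adjusted p = 4.66e-05). In IMR-32 the controls were at 8.62, 9.02, 8.66, 10.8 and 1.09 CPM and the 5-day libraries at 4.01, 3.05, 3.10, 3.45 and 5.94. Replicate 5 was the lowest control and the highest 5-day library, against the order of the other 4. The log2 fold change after 5 days was -0.97 ± 0.54 with it (adjusted p = 0.142) and -1.46 without it (adjusted p = 3.27e-07), and between the treated times CDH20 passed there without replicate 5 (-1.07, adjusted p = 2.16e-05).

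The other type II cadherins were called in few comparisons. CDH5 (VE-cadherin, the cadherin of endothelium) was at 1.5, 1.25, 1.25, 2.17 and 0.804 CPM in control IMR-32 and 3.18, 2.6, 2.58, 3.26 and 1.13 after 24 h. Each 24 h library was above the control of its number, though the groups overlapped through replicate 5, and the log2 fold change was 0.91 ± 0.30 (adjusted p = 0.0277). The call of CDH5 was lost without control replicate 2, 3 or 5 or 24 h replicate 1 or 4 (adjusted p 0.0584 to 0.0691). The endothelial markers PECAM1, CLDN5 and EMCN summed to 0 CPM in these controls and to 0.0489 CPM or less in these 24 h libraries. With the block CDH5 also passed as lower from 24 h to 5 days (-0.69, adjusted p = 0.0467). CDH22 fell in SK-N-BE(2)C from 1.36 ± 0.728 to 0.542 ± 0.331 CPM after 7 days (-1.42 ± 0.51, adjusted p = 0.0193), and at 24 h it passed with the block though not without it (-0.77, adjusted p = 0.0445). Its late call was lost without control replicate 1 (adjusted p = 0.0744) or 7-day replicate 3 (adjusted p = 0.0502). In the same line CDH6 rose between 24 h and 7 days, from 0.899 ± 0.335 to 2.65 ± 1.58 CPM (1.54 ± 0.42, adjusted p = 0.00464), and at 24 h it was lower than control with the block though not without it (-0.94, adjusted p = 0.0494). In IMR-32 CDH6 stood at 30.5 ± 11.6 CPM in control and 67.8 ± 39.4 after 5 days, with 7.56 CPM in replicate 5 and 53.4 to 110 CPM in the others, and it was not called but passed with the block, against control (0.92, adjusted p = 0.0261) and against 24 h (1.02, adjusted p = 0.0206). CDH10 (62.6 ± 16.5 CPM in control SK-N-BE(2)C) and CDH18 (3.60 ± 1.43) were called in no comparison.

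Of the 5 atypical cadherins matched by symbol, CDH23 was the one that passed the filter in any line. Together with PCDH15 it forms the tip link of inner ear hair cells. CDH23 (chromosome 10, 73156677 to 73575704, plus strand) was at 6.10, 4.51, 5.82, 5.93 and 5.63 CPM in control IMR-32, at 2.25, 2.20, 1.88, 2.50 and 1.0 after 24 h, and at 0.873, 1.20, 1.43, 1.21 and 1.74 after 5 days. Both treated groups lay below all controls. Log2 fold changes were -1.45 ± 0.22 at 24 h (adjusted p = 0.000136) and -2.12 ± 0.23 after 5 days (adjusted p = 4.43e-06). In SH-SY5Y controls were at 2.15, 2.73, 3.44, 2.96 and 2.11 CPM, 24 h libraries at 0.831, 0.349, 0.653, 0.410 and 0.628, and 5-day libraries at 4.59, 1.56, 0.676, 0.840 and 0.362. The fall at 24 h was free of overlap (-2.23 ± 0.51, adjusted p = 0.00169), whereas the 5-day libraries ran from within the 24 h range to above the controls. The late log2 fold change of -0.82 ± 0.44 was not called (adjusted p = 0.116) but passed with the block (-1.03, adjusted p = 0.0469) and without 5-day replicate 1, the library above the controls (-1.69, adjusted p = 0.000106).

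Between 24 h and the longer time CDH23 was called lower in IMR-32 (-0.67 ± 0.24, adjusted p = 0.0387) and higher in SH-SY5Y (1.42 ± 0.54, adjusted p = 0.0422). Both calls were fragile. The call of CDH23 in SH-SY5Y rested on the 5-day library of replicate 1, without which the value was 0.57 (adjusted p = 0.234), and it was also lost without control replicate 2 or 4, 24 h replicate 2, 3, 4 or 5 or 5-day replicate 2 (adjusted p from 0.0506) and with the block (1.26, adjusted p = 0.0655). That in IMR-32 was lost without any 1 of replicates 1 to 4 at 24 h or at 5 days (adjusted p 0.0502 to 0.0928). It was also lost with library size alone and with no filter on low counts. In the annotation 3505 bases of CDH23 overlap C10orf105 on the opposite strand.

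Among the delta-2 protocadherins, PCDH18 was called lower late in treatment in each line. PCDH18 (chromosome 4, 138440072 to 138453648, minus strand), whose upstream window is printed above, was at 41.6, 41.6, 38.3, 34.6 and 39.0 CPM in control SK-N-BE(2)C, at 30.0, 25.7, 27.7, 28.1 and 29.3 after 24 h, and at 8.33, 7.23, 6.47, 8.11 and 8.10 after 7 days. The 3 groups did not overlap and followed the length of treatment. In log2 terms the late change was -2.40 ± 0.08 (adjusted p = 4.33e-12), which left 0.190 of the control level. At 24 h it was -0.50 ± 0.08 (adjusted p = 5.82e-05), so near the limit of size that it went under on leaving out control replicate 1 or 2 or 24 h replicate 2, 3 or 4 (values of -0.48 to -0.50, adjusted p at most 0.000287), with library size alone (-0.47, adjusted p = 8.14e-05), with no filter on low counts (-0.50, adjusted p = 5.14e-05) and with replicates 1 and 2 set aside (-0.44, adjusted p = 0.000912).

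In SH-SY5Y PCDH18 was at 28.8, 34.3, 29.1, 26.6 and 33.0 CPM in control, 21.3, 27.7, 31.9, 24.7 and 25.8 at 24 h and 12.5, 13.6, 13.5, 12.9 and 14.4 after 5 days. The 5-day libraries lay below all others, while the 24 h libraries overlapped the controls. Its log2 fold change was -1.25 ± 0.10 after 5 days (adjusted p = 8.33e-09) and -0.22 ± 0.10 at 24 h (adjusted p = 0.0646). In IMR-32 the gene was at 5.22, 7.16, 5.17, 5.85 and 15.1 CPM in control, 1.86, 0.651, 1.93, 1.14 and 6.2 at 24 h and 0.291, 0.109, 0.344, 0.329 and 1.34 after 5 days. Replicate 5 was the highest library of each group by a wide gap, yet it fell in the same order as the others. The fitted log2 fold change was -1.69 ± 0.56 at 24 h (adjusted p = 0.0308) and -3.99 ± 0.66 after 5 days (adjusted p = 0.000197), and -2.01 (adjusted p = 1.23e-05) and -4.43 (adjusted p = 2.84e-08) without replicate 5. Leaving out control replicate 5 or 24 h replicate 1, 2, 3 or 4 alone ended the 24 h call (adjusted p from 0.0631 to 0.0826). The late responses of PCDH18 differed between lines by 2.79 log2 although all were lower.

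**Figure D2:**
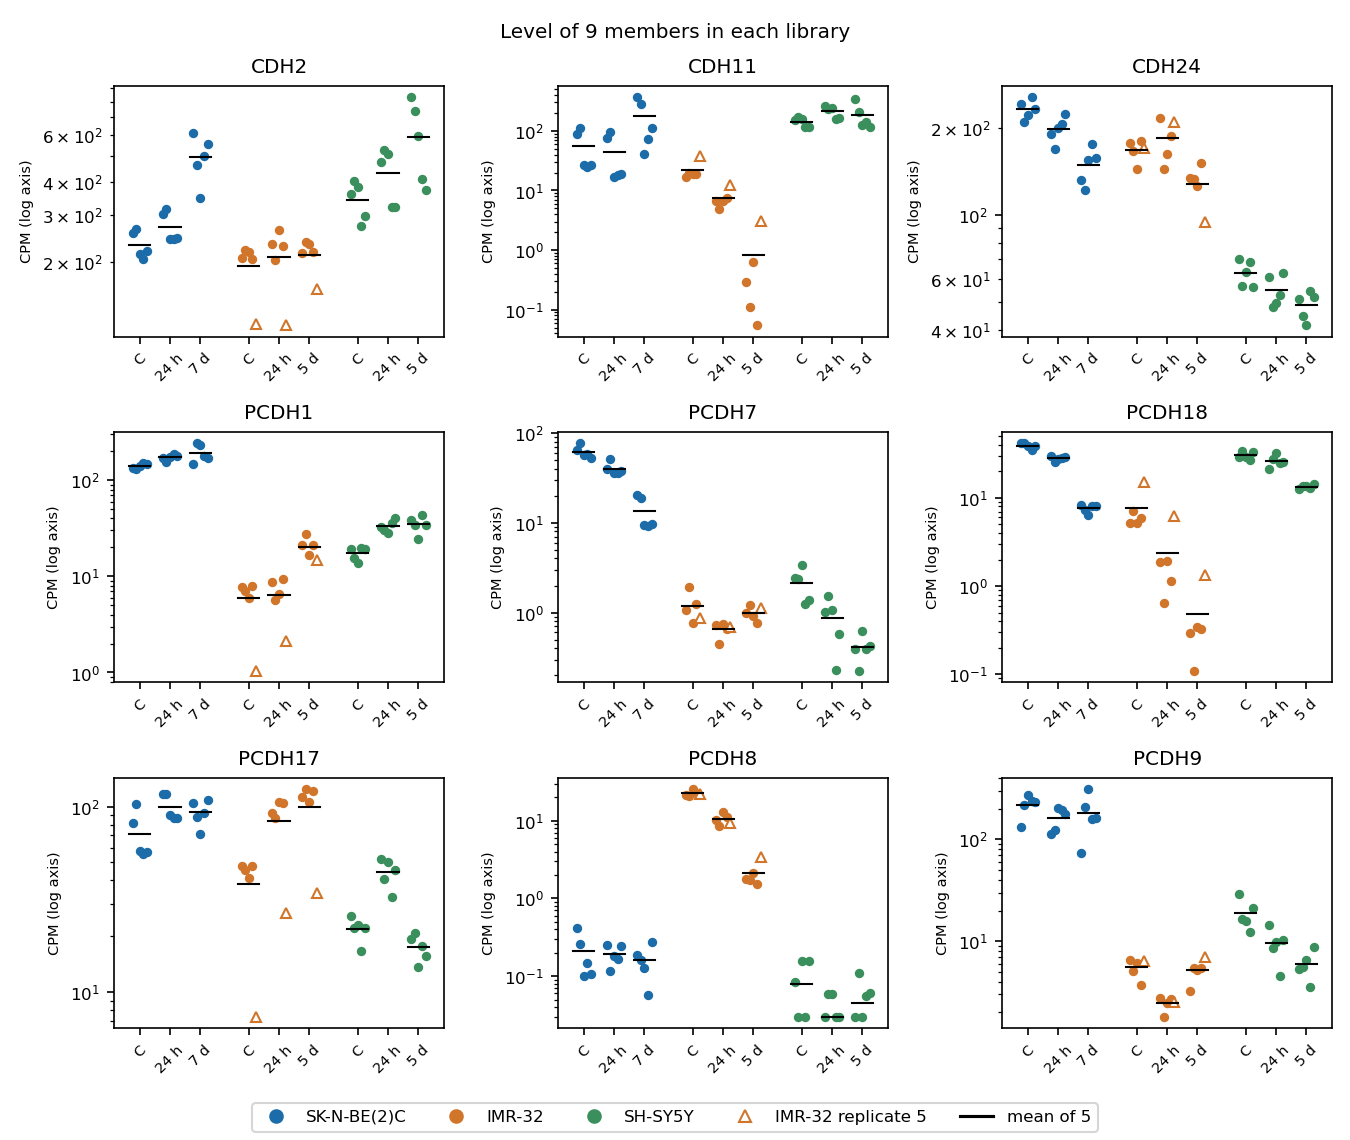
CPM of 9 members in each library, on a log axis with values under 0.03 drawn at 0.03, by line and treatment, with replicate 5 of IMR-32 as an open triangle and 5 points per group. PCDH18 steps down in every line, CDH11 was called lower in IMR-32, and the open triangle lies off the other 4 points for PCDH17, PCDH18 and CDH2.

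PCDH8 (also named arcadlin, known from activity-dependent change at synapses; chromosome 13, 53417024 to 53422776, minus strand) was expressed in IMR-32 alone. It was at 21.6, 20.8, 25.5, 22.9 and 22.3 CPM in control, at 10.2, 8.56, 12.7, 11.2 and 9.27 after 24 h, and at 1.8, 1.74, 2.12, 1.53 and 3.36 after 5 days. The 3 groups were apart from each other. Its log2 fold change was -1.08 ± 0.16 at 24 h (adjusted p = 0.000122) and -3.43 ± 0.19 after 5 days (adjusted p = 1.27e-08). The other lines had means of 0.208 CPM or less. PCDH19 (known from a form of epilepsy; X chromosome, 99546642 to 99665271, minus strand) was at 3.51, 3.64, 3.29, 2.53 and 3.73 CPM in control SK-N-BE(2)C and 1.58, 1.08, 0.462, 0.794 and 0.881 after 7 days, with no overlap (-1.87 ± 0.26, adjusted p = 6.49e-06). In IMR-32 it was at 20.3, 23.2, 12.5, 18.4 and 46.7 CPM in control and 12.3, 9.48, 11.4, 12.1 and 15.5 after 5 days. Replicate 5 was the highest in both groups, which overlapped. For PCDH19 the log2 fold change was -1.01 ± 0.38 (adjusted p = 0.0378), or -0.73 without replicate 5 (adjusted p = 9.19e-04). Leaving out 1 of control replicates 2 and 5 or of 5-day replicates 1 to 4 ended the call (adjusted p from 0.0537 to 0.135). At 24 h PCDH19 was not called in IMR-32 but passed with the block (-0.63, adjusted p = 0.0148), without replicate 5 (-0.70, adjusted p = 0.0021) and without its 24 h library alone (-1.09, adjusted p = 0.0112).

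PCDH10 (OL-protocadherin, known from axon growth; chromosome 4, 134070449 to 134129761, plus strand) fell in IMR-32 after 5 days and rose in SK-N-BE(2)C from 24 h to 7 days. Its IMR-32 controls were at 5.39, 4.46, 5.12, 4.76 and 5.98 CPM and the 5-day libraries at 1.51, 1.58, 1.78, 1.42 and 6.16. Replicate 5 alone did not fall. For PCDH10 the log2 fold change was -1.05 ± 0.39 (adjusted p = 0.0342), and -1.65 without replicate 5 (adjusted p = 9.26e-07). The call was lost without control replicate 1, 3 or 5 or 5-day replicate 1, 2, 3 or 4 taken singly (adjusted p 0.0527 to 0.0855), and at 24 h it was not called but passed with the block (-0.71, adjusted p = 0.0199) and without replicate 5 (-0.85, adjusted p = 0.000634). Between the treated times PCDH10 passed without replicate 5 (-0.81, adjusted p = 0.00231). The 24 h libraries of SK-N-BE(2)C were at 33.9, 33.8, 22.0, 20.1 and 20.9 CPM and those of 7 days at 29.4, 39.6, 51.5, 42.4 and 39.2. They overlapped through replicate 1 of 7 days, and the log2 fold change was 0.61 ± 0.19 (adjusted p = 0.0101). With replicates 1 and 2 set aside PCDH10 was also above control after 7 days (0.64, adjusted p = 9.07e-05). SH-SY5Y was at 3.28 ± 1.45 CPM in control and 5.51 ± 2.95 after 5 days, a difference that passed with the block (0.63, adjusted p = 0.0124) and not without it (0.68 ± 0.49, adjusted p = 0.236). Against 24 h it also passed with the block (0.98, adjusted p = 0.00119).

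PCDH17 (known from synapse formation; chromosome 13, 58205878 to 58303445, plus strand) was the delta-2 member called higher against control. In SH-SY5Y it was at 25.7, 22.0, 22.9, 16.6 and 22.2 CPM in control, 52.5, 40.9, 50.1, 32.6 and 45.7 at 24 h and 19.3, 20.8, 13.7, 17.6 and 15.7 after 5 days. The 24 h libraries were above both other groups, and the 5-day libraries overlapped the controls. It rose by 1.0 ± 0.13 at 24 h (adjusted p = 5.07e-06), was lower by 5 days than at 24 h (-1.41 ± 0.13, adjusted p = 1.14e-06) and ended at -0.40 ± 0.13 against control, under the size limit. In IMR-32 it was at 48.1, 45.5, 41.4, 47.9 and 7.36 CPM in control, 92.9, 86.3, 106, 105 and 26.7 at 24 h, and 113, 124, 105, 121 and 34.1 after 5 days. Replicate 5 was far below the others in each group, and rose with them. PCDH17 had a log2 fold change of 1.38 ± 0.47 after 5 days (adjusted p = 0.0239) and of 1.33 (adjusted p = 1.78e-09) without replicate 5. Leaving out 5-day replicate 2 ended the late call (adjusted p = 0.0511), as did fitting with no filter on low counts. At 24 h the value was 1.18 ± 0.47 (adjusted p = 0.0655), which passed with the block (1.25, adjusted p = 1.16e-06) and without replicate 5 (1.15, adjusted p = 4.83e-09). SK-N-BE(2)C had 81.1, 104, 57.8, 55.8 and 57.0 CPM in control and 117, 117, 90.4, 86.9 and 86.5 at 24 h, with each library above the control of its number. The value of 0.45 ± 0.18 was not called (adjusted p = 0.0504) and was 0.58 with replicates 1 and 2 set aside (adjusted p = 0.00286). After 7 days the log2 fold change of PCDH17 there was 0.34 (adjusted p = 0.1), not called, but it passed with those replicates set aside (0.61, adjusted p = 0.00107) and without control replicate 2 (0.51, adjusted p = 0.00784). In the annotation 654 bases of PCDH17 overlap a transcript of the opposite strand.

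Among the delta-1 protocadherins PCDH7 was the member called lower in each line at 24 h. PCDH7 (BH-protocadherin, of brain and heart; chromosome 4, 30721991 to 31148427, plus strand) was at 64.5, 76.8, 56.8, 58.6 and 52.0 CPM in control SK-N-BE(2)C, at 39.5, 51.0, 36.1, 35.9 and 37.7 after 24 h, and at 20.1, 18.9, 9.50, 9.25 and 9.80 after 7 days. The groups did not overlap, and replicates 1 and 2 stood above the others at 7 days. In log2 terms the change was -0.66 ± 0.21 at 24 h (adjusted p = 0.0172) and -2.24 ± 0.22 after 7 days (adjusted p = 3.17e-07). SH-SY5Y was at 2.41, 2.37, 3.39, 1.24 and 1.37 CPM in control, 1.01, 1.51, 1.07, 0.228 and 0.576 at 24 h and 0.392, 0.223, 0.628, 0.392 and 0.423 after 5 days. The 5-day libraries lay below all controls. Its log2 fold change was -1.33 ± 0.36 at 24 h (adjusted p = 0.00543) and -2.42 ± 0.40 after 5 days (adjusted p = 4.07e-05), and between 24 h and 5 days it was not called but passed with the block (-1.08, adjusted p = 0.0178) and with DESeq2 (-1.11, adjusted p = 0.0386).

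In IMR-32 PCDH7 was at 1.06, 1.90, 0.762, 1.25 and 0.862 CPM in control, 0.733, 0.451, 0.744, 0.651 and 0.689 at 24 h and 0.989, 1.20, 0.917, 0.767 and 1.12 after 5 days. The 24 h libraries lay just below both other groups. The 24 h log2 fold change of PCDH7 was -0.79 ± 0.26 (adjusted p = 0.028) and the late one -0.24 ± 0.25 (adjusted p = 0.445). The 24 h call in IMR-32 was lost without control replicate 2 or 4 or 24 h replicate 2 or 4 (adjusted p 0.0537 to 0.0935), and with no filter on low counts the 24 h calls of IMR-32 (adjusted p = 0.0643) and SK-N-BE(2)C (adjusted p = 0.057) both missed the threshold. The late response of PCDH7 differed between lines by 2.11 log2. In the annotation 1602 bases of PCDH7 overlap a transcript of the opposite strand.

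PCDH9 (chromosome 13, 66876966 to 67804577, minus strand) is a delta-1 protocadherin of brain. In the fit of all libraries its 24 h log2 response was -1.14 for IMR-32, -0.99 for SH-SY5Y and -0.48 for SK-N-BE(2)C. No difference was called between these (adjusted p = 0.491). Late in treatment SH-SY5Y, at -1.73, stood apart from IMR-32 (-0.13, adjusted p = 0.00475) and from SK-N-BE(2)C (-0.32, adjusted p = 0.00496). PCDH9 showed no late difference between IMR-32 and SK-N-BE(2)C (adjusted p = 0.783). In IMR-32 it was at 6.50, 5.11, 6.15, 3.72 and 6.38 CPM in control, 2.74, 1.8, 2.48, 2.71 and 2.51 at 24 h and 3.26, 5.40, 5.16, 5.43 and 7.00 after 5 days. The 24 h libraries lay below both other groups, and the 5-day libraries overlapped the controls. It fell by 1.14 on the log2 scale at 24 h (SE 0.21, adjusted p = 0.000559) and rose by 1.05 ± 0.21 from there to 5 days (adjusted p = 0.00129). In SH-SY5Y it was at 28.9, 16.6, 15.7, 12.3 and 21.1 CPM in control, 14.5, 8.50, 9.73, 4.55 and 10.2 at 24 h and 5.32, 5.64, 6.47, 3.53 and 8.70 after 5 days. Each replicate was lower than its control at both times, and the 5-day libraries lay below all controls. The log2 fold change of PCDH9 there was -1.02 ± 0.28 at 24 h (adjusted p = 0.00777) and -1.74 ± 0.29 after 5 days (adjusted p = 9.26e-05), and between 24 h and 5 days it was not called but passed with the block (-0.70, adjusted p = 0.00221). In SK-N-BE(2)C, where the gene was most abundant at 132, 217, 274, 241 and 235 CPM in control and 73.9, 210, 313, 159 and 162 after 7 days, the late log2 fold change of -0.30 ± 0.30 was not called (adjusted p = 0.377).

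PCDH1 (known from epithelia and airway; chromosome 5, 141232655 to 141258811, minus strand) was the delta-1 member called higher against control. It was at 19.2, 15.6, 13.6, 19.8 and 19.4 CPM in control SH-SY5Y, at 32.9, 30.1, 28.5, 35.6 and 40.2 after 24 h, and at 38.9, 34.3, 24.2, 43.7 and 34.4 after 5 days. Both treated groups were above all controls. The rise was 0.92 ± 0.14 at 24 h (adjusted p = 4.34e-05) and 0.93 ± 0.14 after 5 days (adjusted p = 2.11e-05), so that the treated times differed by 0.01 ± 0.14. In IMR-32 it was at 7.78, 7.01, 5.99, 8.02 and 1.03 CPM in control, 8.80, 5.61, 6.54, 9.28 and 2.13 at 24 h and 20.9, 27.2, 16.9, 21.2 and 14.8 after 5 days. The rise came after 24 h, with every 5-day library above all others. The log2 fold change of PCDH1 was 1.74 ± 0.42 (adjusted p = 0.00299), or 1.57 without replicate 5 (adjusted p = 5.85e-07). In SK-N-BE(2)C, at 133, 130, 140, 152 and 146 CPM in control and 149, 243, 231, 178 and 169 after 7 days, the late value of 0.42 ± 0.11 passed on p (0.0019 adjusted) and not on size. PCDH11X passed the filter in IMR-32 alone (1.29 ± 0.400 CPM in control, 3.15 ± 3.65 after 5 days with 9.63 in replicate 5) and was not called there. It may share reads with its near-identical Y-linked copy, which was not measured.

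**Figure D3:**
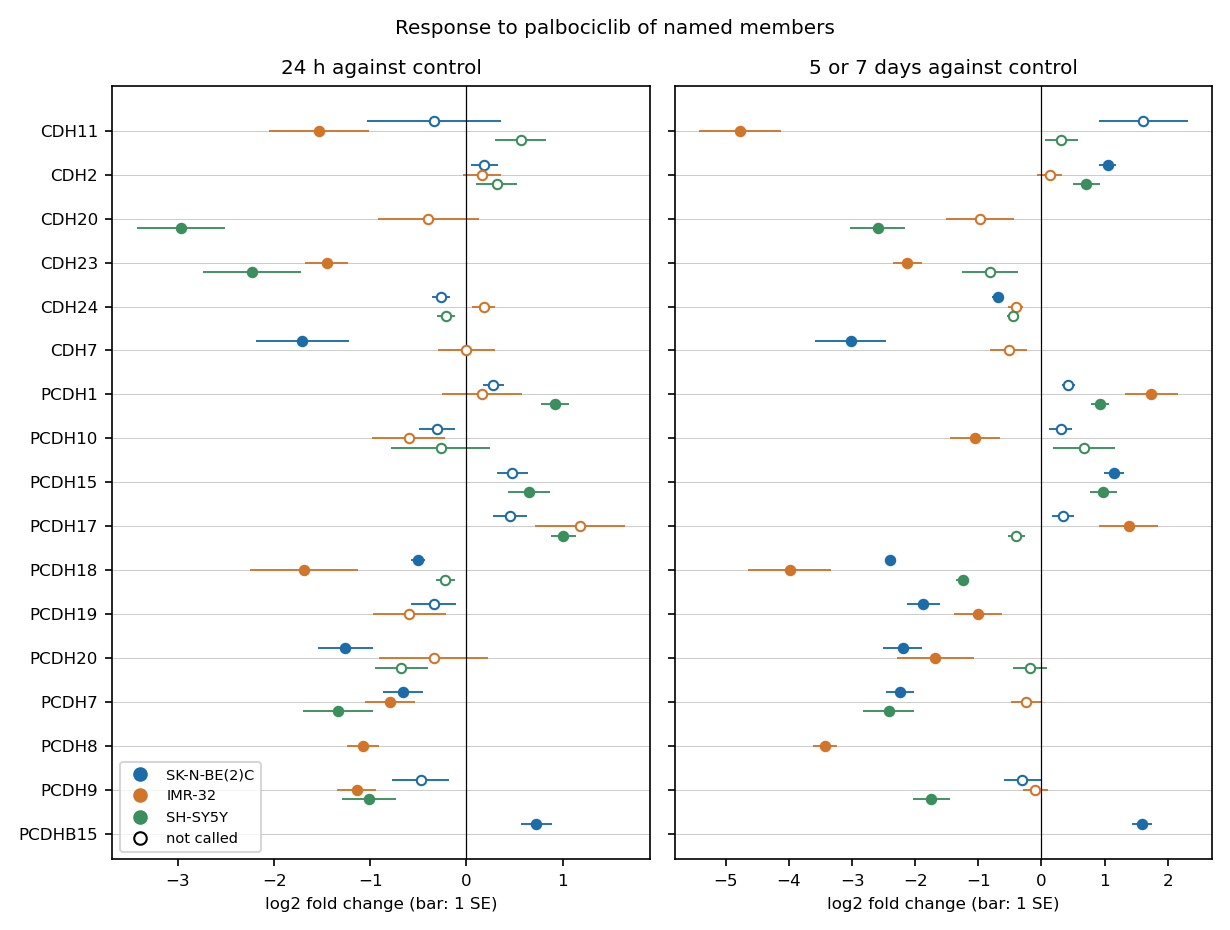
Log2 fold change against control (± 1 SE) of members in the 3 lines at 24 h and with the longer treatment, filled where called. PCDH18 lies left of 0 and filled in each line late in treatment, and CDH11 runs from -4.78 in IMR-32 to 1.61 in SK-N-BE(2)C.

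PCDH15 and PCDH20 belong to neither delta group. PCDH15 (chromosome 10, 55562531 to 57387702, minus strand), the partner of CDH23 in the tip link, was at 2.43, 3.12, 2.94, 3.12 and 3.51 CPM in control SK-N-BE(2)C, at 4.10, 3.69, 4.16, 4.46 and 5.09 after 24 h, and at 4.67, 7.18, 9.12, 6.81 and 6.55 after 7 days. Both treated groups were above all controls. Its late log2 fold change was 1.14 ± 0.16 (adjusted p = 7.70e-06), and that at 24 h, 0.48 ± 0.16 (adjusted p = 0.0239), was just under the size limit. In SH-SY5Y it was at 1.39, 1.37, 1.09, 1.57 and 1.37 CPM in control, 2.85, 2.39, 2.79, 1.59 and 1.31 at 24 h and 3.08, 3.12, 3.33, 2.24 and 2.36 after 5 days. The 5-day libraries were above all controls, while 24 h replicate 5 was within the control range. PCDH15 rose by 0.98 ± 0.22 after 5 days (adjusted p = 0.000604) and by 0.65 ± 0.22 at 24 h (adjusted p = 0.0201), a call lost without 24 h replicate 1, 2 or 3 (adjusted p 0.0506 to 0.0713). PCDH15 was thereby called higher late in both lines in which it was tested.

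PCDH20 (chromosome 13, 61983818 to 61989982, minus strand) was at 8.43, 11.2, 5.09, 4.24 and 4.11 CPM in control SK-N-BE(2)C, at 3.15, 3.66, 1.99, 2.79 and 2.57 after 24 h, and at 1.70, 1.62, 0.925, 1.25 and 2.04 after 7 days. Every treated library was below every control, and replicates 1 and 2 were the highest controls. Log2 fold changes were -1.26 ± 0.28 at 24 h (adjusted p = 0.00166) and -2.20 ± 0.30 after 7 days (adjusted p = 6.40e-06). In IMR-32 it was at 1.86, 1.75, 1.63, 1.71 and 5.63 CPM in control and 0.349, 1.09, 0.573, 0.438 and 1.46 after 5 days, with no overlap. For PCDH20 the log2 fold change was -1.68 ± 0.61 (adjusted p = 0.031), and -1.5 without replicate 5 (adjusted p = 8.15e-04). That call was lost without control replicate 5 or 5-day replicate 1, 3 or 4 (adjusted p 0.0642 to 0.108). SH-SY5Y, at 5.02, 6.05, 7.25, 3.43 and 3.81 CPM in control and 4.87, 5.58, 5.84, 3.47 and 3.81 after 5 days, was not called (-0.18 ± 0.27, adjusted p = 0.575). Its 24 h value of -0.68 ± 0.28 missed the threshold (adjusted p = 0.0533) and passed with the block (-0.70, adjusted p = 0.000677). Between the treated times PCDH20 was not called but passed with the block, as lower in IMR-32 (-1.17, adjusted p = 0.00727) and higher in SH-SY5Y (0.53, adjusted p = 0.00761).

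Of the clustered protocadherins, 1 gene and 3 pooled entries could be followed, and their calls differed by line. PCDHB15 (chromosome 5, 140624963 to 140628933, plus strand), whose upstream window is printed above, was at 3.28, 4.52, 4.84, 4.61 and 4.70 CPM in control SK-N-BE(2)C, at 5.99, 6.17, 9.29, 7.47 and 8.25 after 24 h, and at 10.7, 16.5, 16.4, 11.9 and 12.6 after 7 days. The 3 groups did not overlap and rose with the length of treatment. The fitted log2 fold change was 0.73 ± 0.16 at 24 h (adjusted p = 0.00131) and 1.59 ± 0.16 after 7 days (adjusted p = 1.51e-07). PCDHB15 was under the filter in the other lines, with means of 0.179 to 0.446 CPM in IMR-32 and 0.193 to 0.297 in SH-SY5Y. PCDHGA1, which shares its last exons with the rest of the gamma cluster so that its count is uncertain, had a mean of at most 0.367 CPM.

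The pooled entry PCDHB@ followed PCDHB15 in SK-N-BE(2)C. It was at 20.1, 25.9, 30.6, 25.0 and 25.1 CPM in control, 29.7, 35.6, 39.6, 41.5 and 36.0 at 24 h and 34.5, 68.6, 64.6, 42.4 and 56.2 after 7 days. All 7-day libraries were above all controls (1.03 ± 0.16, adjusted p = 3.24e-05). From 24 h to 7 days the value of PCDHB@ was 0.54 ± 0.16 (adjusted p = 0.00888), which fell under a limit without 24 h replicate 1 or 7-day replicate 2 or 3 (lowest 0.44, adjusted p 0.0265 to 0.0297) and with replicates 1 and 2 set aside (0.47, adjusted p = 0.0169). At 24 h PCDHB@ lay at the size limit, not called at 0.49 but past it with the block (0.50, adjusted p = 0.00139) and with library size alone (0.53, adjusted p = 0.0173). In SH-SY5Y it went from 31.9 ± 2.87 CPM in control to 47.3 ± 4.10 at 24 h (0.56 ± 0.07, adjusted p = 5.01e-06) and 41.7 ± 2.14 after 5 days (0.32 ± 0.07, under the size limit).

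In IMR-32 the 3 pooled entries moved together across libraries. After 5 days PCDHA@ was at 8.67, 18.3, 6.48, 20.5 and 6.44 CPM, PCDHB@ at 9.19, 16.9, 6.19, 15.6 and 5.26, and PCDHG@ at 4.60, 6.59, 1.66, 8.55 and 1.74. Replicates 2 and 4 were the highest for each of the 3 entries. Controls were at 3.21 to 5.13, 2.53 to 5.11 and 1.42 to 2.71 CPM. In log2 terms the late change was 1.5 ± 0.29 for PCDHA@ (adjusted p = 0.000631), 1.40 ± 0.31 for PCDHB@ (adjusted p = 0.00156) and 0.97 ± 0.40 for PCDHG@ (adjusted p = 0.0566). PCDHG@ passed with the block (0.82, adjusted p = 0.0173) and without replicate 5 (1.23, adjusted p = 0.0119). At 24 h PCDHB@ was not called in IMR-32 but passed with the block (0.82, adjusted p = 0.00316), with DESeq2 (0.77, adjusted p = 0.0387) and without replicate 5 (0.80, adjusted p = 0.0243). Between the treated times PCDHB@ likewise passed with the block (0.51, adjusted p = 0.0338) and without replicate 5 (0.65, adjusted p = 0.0431).

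SH-SY5Y went the other way in the gamma cluster. PCDHG@ was at 5.87, 5.47, 5.06, 5.87 and 6.40 CPM in control, 6.35, 5.59, 6.88, 6.33 and 7.07 at 24 h and 3.19, 3.07, 2.27, 2.18 and 4.23 after 5 days. The 5-day libraries were below all others, with a log2 fold change of -1.02 ± 0.16 (adjusted p = 1.78e-05). PCDHA@ there was at 10.1 ± 1.90 CPM in control and 8.67 ± 0.769 after 5 days (-0.29 ± 0.12, under the size limit). In SK-N-BE(2)C PCDHA@ (22.8 ± 3.56 to 29.9 ± 3.86 CPM) and PCDHG@ (15.3 ± 4.90 to 22.2 ± 6.80 CPM) were not called late. The late responses of the 3 entries differed between lines by 1.73 log2 for PCDHA@, 1.01 for PCDHB@ and 1.92 for PCDHG@, and each difference was called, though that of PCDHB@ fell under the size limit with the block (0.97).

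**Figure D4:**
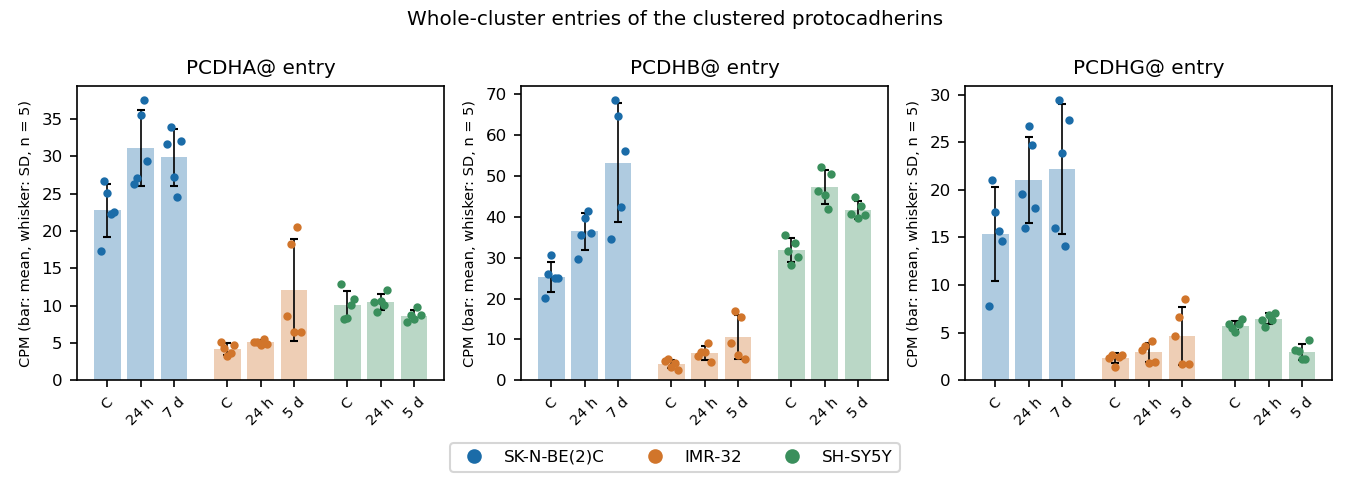
Mean CPM (bars from 0, ± SD over 5 libraries, with each library as a point) of the pooled entries PCDHA@, PCDHB@ and PCDHG@ by line and treatment. In IMR-32 after 5 days 2 libraries of each entry are above the other 3, and PCDHG@ in SH-SY5Y is lowest after 5 days.

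Whether the response itself differed between lines was tested over all 45 libraries, with a difference called at an adjusted p under 0.05 and over 1 log2 between at least 2 lines. At the longer time it was called for 13 of 25 members tested (52%, against 20.4% of all genes), and at 24 h for 2 of 25 (8%, against 2.82%). Between lines in which the member passed the filter, the late difference was 6.42 for CDH11, 2.79 for PCDH18, 2.49 for CDH7 (IMR-32 and SK-N-BE(2)C), 2.11 for PCDH7, 2.05 for PCDH20, 1.79 for PCDH10, 1.71 for PCDH17, 1.60 for PCDH9, 1.37 for CDH23 (IMR-32 and SH-SY5Y) and 1.27 for PCDH1. The difference called for CDH23, 3.65 over the 3 lines, was 1.37 between IMR-32 and SH-SY5Y and otherwise came from SK-N-BE(2)C, where it was under the filter. Without 5-day replicate 1 of SH-SY5Y the late change of CDH23 there was -1.69, beside -2.12 in IMR-32, each from the fit of its own line. No fit of all lines left out that library alone. The difference called for PCDH19, 4.08 over the 3 lines, was 0.85 between IMR-32 and SK-N-BE(2)C and otherwise came from SH-SY5Y, where the gene was at 0.167 CPM or less on average. PCDH8 and PCDHB15 were each above the filter in 1 line, so their called differences of 2.99 and 1.61 set that line against lines with hardly any reads. PCDH18 was called lower in each line, and its responses differed in size, whereas CDH11 was called lower in IMR-32 and was not called against control in the other lines. In SK-N-BE(2)C the late rise of CDH11 passed under several other settings, as given with its values. At 24 h the called differences were 1.52 for PCDH18 and 4.38 for CDH20, the latter 2.53 between IMR-32 and SH-SY5Y and otherwise from SK-N-BE(2)C, where CDH20 was under the filter. With the block CDH11 (2.10, adjusted p = 0.000121) and CDH7 (1.65, adjusted p = 0.00358) were called besides them. Without replicate 1, 2, 3 or 4 of each group neither PCDH18 nor CDH20 was called, and with IMR-32 replicate 5 set aside CDH7 was called besides them (1.77, adjusted p = 0.00608), as was CDH20 late in treatment (3.39 over the 3 lines, adjusted p = 0.0411).

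Genes that act with cadherins were described from 5 lists. Values are given first for SK-N-BE(2)C, next for IMR-32 and last for SH-SY5Y, with the longer treatment against control unless stated. In that comparison 24.5%, 16.6% and 18.6% of all genes tested were higher and 22.3%, 15.5% and 17.3% lower, and these shares stand beside each count of the lists. Of 12 catenins and linkers, 10, 11 and 10 were tested, and 2, 3 and 2 were higher and 2, 1 and 1 lower. ARVCF, a catenin of the p120 family, rose in each line (log2 fold change 1.03, 1.75 and 0.67), as did JUP, or plakoglobin (0.62, 1.43 and 0.73), while PKP4, another p120 relative, fell (-0.99, -0.85 and -0.61). Among 22 other genes of the cadherin superfamily found in the tables, 14, 11 and 13 were tested and 4, 1 and 4 were higher and 2, 3 and 3 lower. The counts of both lists are small, and nothing particular to either list is read from them. CLSTN3, a calsyntenin of the postsynaptic membrane, rose (2.19, 1.08 and 1.58), and the atypical cadherins CELSR1 (-1.33, -2.06 and -1.04) and FAT3 (-1.43, -3.23 and -3.86) fell in each line.

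A list of promoter choice and looping held CTCF, cohesin subunits, the cohesin loader NIPBL, the cohesin release factor WAPL and the silencing factor SMCHD1. Of its 9 genes, all tested, 6, 7 and 7 were lower at 24 h (10.6%, 10.5% and 11.0% of all genes tested were lower) and 6, 3 and 6 late in treatment (22.3%, 15.5% and 17.3%), with 0 higher at either time. RAD21, a core subunit of cohesin, fell late in treatment by 0.77, 0.84 and 0.80 on the log2 scale, and STAG1, another cohesin subunit, fell by 1.06, 0.65 and 1.04. CTCF was called lower in each line at 24 h and late in SH-SY5Y alone. Of the 6 repressors of cadherin genes, 5 were tested in each line and 3, 1 and 4 were lower late in treatment, with ZEB1 higher in SK-N-BE(2)C. TWIST1 fell in each line (-0.94, -0.57 and -1.13). Of 9 proteases and protease subunits that cut cadherins, 2, 1 and 5 were higher (24.5%, 16.6% and 18.6% of all genes) and 1 in each line lower, with ADAM9 lower (-1.01, -0.91 and -0.82) and PSEN2, a gamma-secretase subunit, higher (0.58, 0.77 and 0.51) in each line.

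The remaining members gave no test. Of the 38 members other than PCDH11Y, 10 passed the filter on low counts in 3 lines, 8 in 2 lines, 7 in 1 line and 13 in none. The 13 are CDH1, CDH4, CDH8, CDH9, CDH12, CDH13, CDH16, CDH17, CDH19, CDH26, PCDH12, PCDHGA1 and PCDH8P1. CDH12 had the highest group mean among them, at 0.575 CPM in SK-N-BE(2)C after 7 days, and the highest single library was CDH4 in an IMR-32 control at 0.98 CPM. A gene passed the filter through its higher group, so the counts of called members are over members tested and not over all 39.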

How the data were processed

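PolyA RNA of 3 neuroblastoma lines was sequenced from directional paired-end libraries. Per the study's methods and the submitters' processing notes, reads were trimmed with Trim Galore 0.6.4 and aligned to hg19 with STAR. For the counting, annotation and strand setting are not given in the sources used here. Raw counts per gene for each line were deposited by the authors, as were CPM that the authors made from these counts and that recomputed CPM matched. Deposited tables of the authors' own comparisons (fold changes and p-values) were not used.

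Replicate groups came from the sample labels. Each line was fitted on its 15 libraries with edgeR 4.0.16 (R 4.3.3), after filterByExpr (minimum count 10, total 15) and TMM scaling, with quasi-likelihood F tests and Benjamini-Hochberg adjustment over 14055 genes in SK-N-BE(2)C, 14547 in SH-SY5Y and 14293 in IMR-32. Differences between lines came from 1 fit of 45 libraries over 16282 genes. Printed CPM use raw library totals, and fold changes use TMM. The scripts were tested on simulated data. Same-numbered deviations correlated at 0.109 or more in every pair of IMR-32 and SH-SY5Y, and at 0.243 or more in SK-N-BE(2)C at 24 h. In SK-N-BE(2)C the lowest was 0.0966 for 7 days against control and 0.0482 for 7 days against 24 h. For 7 days against control 3 of 5 libraries correlated best with their own number, beside 2 of 5 in IMR-32 late. Replicate numbers thus paired the samples in part, with no sharp limit between the lines. The main fits did not use this pairing. Alternatives were DESeq2 1.42.0, other scaling, no filter, adjusted p alone, the replicate block and leaving out replicates. Setting aside replicates 1 and 2 of SK-N-BE(2)C or replicate 5 of IMR-32, and fitting the pooled cluster entries, were chosen after seeing the data. Counting limits cover counting error only. Positions and transcript lengths are those of GENCODE on GRCh37, and upstream windows come from RefSeq on GRCh38.p14.

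Members given with full values were CDH1, CDH2, those outside the clusters called late in at least 2 lines, the 3 largest late changes and the 3 highest control levels of each line, and those whose response differed between lines; CDH3, CDH5, CDH6, CDH15, CDH22 and PCDHB15 were added after their values were seen. Pathway genes were named where called alike late in the 3 lines, and CTCF and ZEB1 were added after their values were seen. The members and gene lists were chosen with earlier results of these data known.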

Additional observations from a re-analysis of the deposited data

Results flagged for a closer look

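Of 123 groups of 5 libraries examined, 18 held a library far from the other 4, by a limit that about 1 in 20 groups of independent normal values would pass. The same libraries recur here from gene to gene, so that share is no measure of chance for these counts. Of the 18, 15 were replicate 5 of IMR-32. That replicate was high for CDH11 (38.0 CPM in control, 3.02 after 5 days), PCDH18 (15.1 in control, 6.2 at 24 h, 1.34 after 5 days), PCDH19 (34.4 at 24 h), PCDH20 (5.63 in control, 5.64 at 24 h) and PCDH10 (6.16 after 5 days). It was low for CDH2 (117 CPM in control, 158 after 5 days), CDH20 (1.09 in control) and PCDH17 (7.36 in control, 26.7 at 24 h, 34.1 after 5 days). The other 3 were CDH23 in SH-SY5Y replicate 1 after 5 days (4.59 CPM), PCDH7 in SK-N-BE(2)C replicate 2 at 24 h (51.0 CPM) and PCDH9 in IMR-32 replicate 2 at 24 h (1.8 CPM).

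Responses that differed between lines in the joint test, as the largest log2 difference over the 3 lines, were at 24 h CDH20 (4.38) and PCDH18 (1.52). Late in treatment they were CDH11 (6.42), PCDH19 (4.08), CDH23 (3.65), PCDH8 (2.99), PCDH18 (2.79), CDH7 (2.49), PCDH7 (2.11), PCDH20 (2.05), PCDH10 (1.79), PCDH17 (1.71), PCDHB15 (1.61), PCDH9 (1.60) and PCDH1 (1.27). For CDH7, CDH20, CDH23, PCDH8, PCDH19 and PCDHB15 at least 1 of the 3 lines was under the filter on low counts.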

How the results depend on the processing

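The counts of called members that moved by over 1.5 times were these. With no filter on low counts, 3 members were called in SK-N-BE(2)C at 24 h, 3 in SH-SY5Y between the treated times, and 0 for a difference between lines at 24 h. On adjusted p alone, SK-N-BE(2)C had 8 at 24 h. With the replicate block, which pairs libraries by number, 11 were called in IMR-32 at 24 h, 8 in SH-SY5Y between the treated times and 4 for a difference between lines at 24 h. In SK-N-BE(2)C late in treatment, where the lowest correlation of same-numbered libraries was 0.0966, the block gave 11 calls, with CDH11 added (1.54, adjusted p = 1.89e-05). Leaving out replicates gave 4 to 6, 10 to 12 and 9 to 11 calls in SK-N-BE(2)C (24 h, late, and between treated times), 7 to 9, 7 to 8 and 3 to 6 in SH-SY5Y, then 3 to 11, 6 to 12 and 6 to 11 for IMR-32, with 0 to 3 and 11 to 13 differences between lines. With replicates 1 and 2 of SK-N-BE(2)C set aside its counts were 4, 14 and 11, and with replicate 5 of IMR-32 set aside 3 and 14 differences between lines were called. In IMR-32 at 24 h the count was 4 without control replicate 2 or 5 or 24 h replicate 1 or 2, 3 without 24 h replicate 4 and 11 without replicate 5, and it was 11 between the treated times without replicate 5. In SH-SY5Y it was 3 without 24 h replicate 3 or 5-day replicate 2. The cause of these moves was not tested. Of 67 called values of named members and cluster entries, RLE scaling kept 67, library size alone 65, no filter 55 (lost for PCDH7 at 24 h in 2 lines, and for CDH11, CDH23, PCDH17, PCDH18, PCDH19, PCDH20 and PCDHB@ in 1 or more comparisons), the block 66 and every single omission 53, DESeq2 kept all 64 for which it gave a value, and 0 reversed.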
